A study of Rattus norvegicus with 12 samples.

Results

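The Notch pathway genes described here are the receptors Notch1, Notch2 and Notch3, the ligands Jag1 and Jag2, the DNA-binding partner Rbpj and the target genes Hes1, Hey1 and Heyl. They were taken by symbol from the deposited table. The 9 symbols match 10 of its 22384 lines with a symbol, because Rbpj has 2 lines. RNA was measured by RNA-seq in 12 libraries of rat hepatic progenitor cells (HPCs), immature liver cells that can form hepatocytes and bile duct cells. All groups share the labelled age of 13.5 days of gestation, and each holds 2 libraries: untreated wild type, wild type with tumour necrosis factor alpha (TNFα) for 1 hour, untreated Tnfrsf1α-/-, Tnfrsf1α-/- with TNFα for 1 hour, untreated Tnfrsf1β-/-, and Tnfrsf1β-/- with TNFα for 1 hour. Tnfrsf1α and Tnfrsf1β in these labels stand for the genes of the TNF receptors TNFR1 and TNFR2. The labels do not say whether the cells of a genotype came from 1 clone or several animals, or whether the replicates were separate cultures. P-values therefore set a difference against the spread of these libraries within groups, pooled over all groups, and that spread may be technical.

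Notch receptors sit in the cell membrane and are activated by Jagged or Delta-like ligands on a neighbouring cell. Proteases then release the intracellular part of the receptor, which enters the nucleus, binds RBPJ and recruits Mastermind co-activators, so that repressor genes of the Hes and Hey families are switched on. In the developing liver, Jagged1 acting on Notch2 is known for directing progenitors to a bile duct fate, and loss of either gene's function causes too few bile ducts in Alagille syndrome.

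Levels are log2(FPKM + 1); FPKM counts fragments relative to transcript length and library, and so can be compared between genes. This scale understates the change of low genes. Differences are on the same log2 scale, errors are SD over n = 2 libraries or SE of the fit, and each adjusted p is from limma over 11860 lines with a mean of at least 1 FPKM. The number of reads per library is unknown. Of the 10 lines 6 passed this filter: Notch2, Notch3, Jag1, Jag2, Hes1 and the higher of the Rbpj lines. Notch1, Hey1, Heyl and the lower Rbpj line did not, and are given as levels without a test.

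Facts of the libraries bear on all values below. Tnfrsf1a was at 5.65 to 6.13 in the 4 libraries labelled Tnfrsf1α-/- and at 5.15 to 5.65 in wild type, so it was not lower under that label, and these are called libraries labelled Tnfrsf1α-/-. Tnfrsf1b was listed at 0 in all 4 Tnfrsf1β-/- libraries and also in both untreated wild-type ones. FPKM summed to between 447554 and 472935 in each untreated knockout library, and to between 1071530 and 2085916 in each of the other 8. The summed FPKM of 10 hepatocyte markers was 4725 and 4919 in wild type with TNFα and 8.96 to 26.6 in the other 10 libraries. The summed FPKM of the mesenchymal and stellate markers was 230 and 255 in the same 2 libraries and 2171 to 6297 in the others. The progenitor and epithelial markers Epcam and Afp were listed at 0 in all libraries except those 2. The endothelial markers Kdr and Emcn, the macrophage marker Adgre1 and the mural cell markers Rgs5 and Kcnj8 were listed at 0 in all 12. Other markers of those lists were present. Cd14 was at 3.67 to 5.65 in all libraries, and the mural markers Abcc9 and Mcam reached 9.03 and 10.34. Tek, an endothelial receptor, was at 2.26 to 2.39 in the 4 untreated knockouts and 0 to 0.52 elsewhere. The same 4 libraries were the highest in Hes1, Jag1, Notch2 and Notch3. In the treated libraries labelled Tnfrsf1α-/- Tek was at 0.25 and 0, with Notch2 at 4.40 and 4.14 and Rbpj at 4.98 and 6.30. In untreated wild type Tek was at 0.275 and 0.247, with Jag2 at 3.21 and 2.31. The endothelial list summed to 3.93 to 4.27 FPKM in the untreated knockouts and to at most 0.43 in the other 8. In the untreated knockouts this sum was almost wholly Tek, with Cdh5, Tie1 and Erg at 0.13 or below. The part of endothelial cells in the results was not tested. In bulk RNA, fewer cells of a type and less RNA per cell cannot be told apart.

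The start-site windows of Hes1 and Heyl are shown because these target genes stood at opposite ends of the levels, and because RBPJ reads a short DNA core, TGGGAA. The sequences are from RefSeq, build GRCr8, 250 bases before to 50 after the annotated start, written 5′ to 3′ on the strand of the gene. The Hes1 window is chr11:84212996-84213295 on the minus strand and the Heyl window chr5:140793021-140793320 on the plus strand. Capitals mark TGGGAA or its complement TTCCCA.
Hes1: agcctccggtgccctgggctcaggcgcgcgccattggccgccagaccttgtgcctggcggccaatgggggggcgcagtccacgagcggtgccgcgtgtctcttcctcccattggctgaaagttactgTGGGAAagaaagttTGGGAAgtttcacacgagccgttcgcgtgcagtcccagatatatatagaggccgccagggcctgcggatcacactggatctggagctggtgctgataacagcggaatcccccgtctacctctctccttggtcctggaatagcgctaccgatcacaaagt
Heyl: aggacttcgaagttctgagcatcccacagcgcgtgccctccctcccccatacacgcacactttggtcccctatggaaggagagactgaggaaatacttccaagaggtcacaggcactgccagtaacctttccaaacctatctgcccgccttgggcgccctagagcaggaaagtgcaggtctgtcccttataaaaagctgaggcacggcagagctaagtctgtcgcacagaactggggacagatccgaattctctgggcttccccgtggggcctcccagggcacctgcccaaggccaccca
The Hes1 window held 2 cores on the strand of the gene, with their first base at positions -123 and -109 from the start, and the Heyl window held none. The window of Hes5, a target listed at 0 in 11 libraries, also held 2, as did 1 of the 2 Rbpj windows, and the other Rbpj window and that of Notch3 held 1 each. The 2 Rbpj windows overlap, and the only core of the one is also a core of the other. At least 1 core on either strand was present in 25.7% of the 33469 windows of the same length in the reference, and at least 2 in 3.85%. The longer form GTGGGAA, which overlaps the first Hes1 core and includes it, was in 6.29% of windows on either strand. The Hes5 window held this longer form on each strand, where at least 2 were in 0.236% of windows. Of the 9 symbols 8 had a window. A match describes the letters only, and no match says only that they are not in this window.

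Notch2 was the most abundant Notch receptor in every library. It was at 3.22 and 2.21 in the wild-type pair without TNFα and 2.53 and 2.26 in the pair given it; for Tnfrsf1β-/- the untreated pair was at 4.998 and 4.983 and the treated pair at 2.91 and 2.50, and for the label Tnfrsf1α-/- they were at 4.46 and 4.60 (untreated) and 4.40 and 4.14 (treated). The 3 groups highest in Notch2, both untreated knockouts and the treated libraries labelled Tnfrsf1α-/-, did not overlap each other or the remaining groups. Untreated wild type, treated wild type and treated Tnfrsf1β-/- overlapped. Notch2 held 81.6% to 93.4% of the summed FPKM of the 4 Notch receptor genes in the 12 libraries.

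Notch3, a receptor best known from mural cells of blood vessels, was lower. It was at 1.04 and 0.18 in the wild-type pair without TNFα and 0.01 and 0 in the pair given it; for Tnfrsf1β-/- the untreated pair was at 2.27 and 2.33 and the treated pair at 0.88 and 0.96, and for the label Tnfrsf1α-/- they were at 1.89 and 2.05 (untreated) and 1.21 and 0.01 (treated). The 4 untreated knockout libraries were the highest 4, and the treated pair labelled Tnfrsf1α-/- was split. Notch1, the receptor of many stem cell and blood lineages, stayed between 0.01 and 0.92 with a mean of 0.23 FPKM. Its highest value was in the treated replicate 2 labelled Tnfrsf1α-/-, and the other library of that group was at 0.05. Notch4 was between 0.05 and 0.45.

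**Figure D1:**
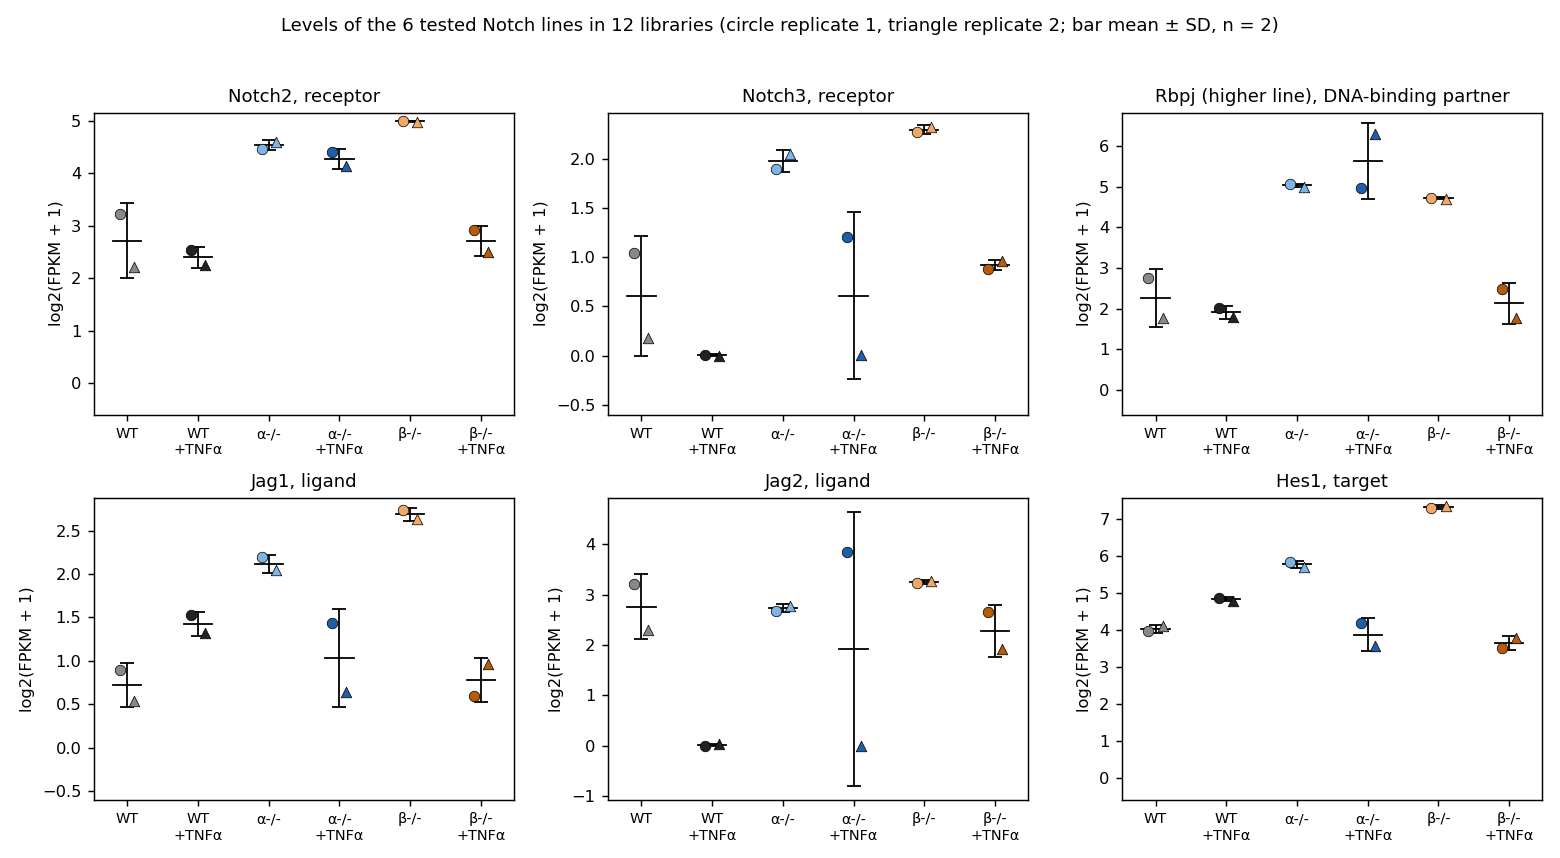
Levels of the 6 tested Notch lines as log2(FPKM + 1), with 1 point for each library (circle replicate 1, triangle replicate 2), grouped by genotype and treatment on the horizontal axis, where α-/- and β-/- stand for Tnfrsf1α-/- and Tnfrsf1β-/-; bars are mean ± SD over n = 2. Hes1, Jag1, Notch2 and Notch3 were highest in the untreated Tnfrsf1β-/- libraries, and Jag2 was split at 3.85 and 0 in the treated libraries labelled Tnfrsf1α-/-.

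Jag1, the ligand whose loss leads to too few bile ducts, was at 0.90 and 0.54 in the wild-type pair without TNFα and 1.52 and 1.32 in the pair given it; for Tnfrsf1β-/- the untreated pair was at 2.74 and 2.63 and the treated pair at 0.60 and 0.96, and for the label Tnfrsf1α-/- they were at 2.19 and 2.05 (untreated) and 1.43 and 0.64 (treated). The untreated knockouts were again the highest 4 libraries, with Tnfrsf1β-/- above the label Tnfrsf1α-/-. The 3 treated groups and untreated wild type overlapped neighbour by neighbour in the order.

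Jag2, the second Jagged ligand, had another pattern. It was at 3.21 and 2.31 in the wild-type pair without TNFα and 0 and 0.04 in the pair given it; for Tnfrsf1β-/- the untreated pair was at 3.23 and 3.28 and the treated pair at 2.65 and 1.92, and for the label Tnfrsf1α-/- they were at 2.68 and 2.79 (untreated) and 3.85 and 0 (treated). The 3 libraries at or near 0 were both of treated wild type and replicate 2 of the treated label Tnfrsf1α-/-, while the other 9 were at 1.92 or above. Jag2 made up 56.0% to 89.3% of the summed FPKM of 5 Notch ligand genes in those 9 libraries. In the 3 libraries without it, the Delta-like genes Dll1, Dll3 and Dll4 together held 83.3% and 84.6% in treated wild type and 80.9% in the treated library labelled Tnfrsf1α-/-. Dll3 and Dll4 were the ones present in treated wild type, at 2.83 and 2.82 and at 2.02 and 1.71, and Dll1 in the treated library labelled Tnfrsf1α-/-, at 1.73. In that last library the sum was only 2.9 FPKM, and Dner, a further listed gene left out of the sum, was at 1.79. These shares describe RNA and do not say which ligand acts on a receptor. Dll1, Dll4 and Dner were chosen after their values were seen.

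**Figure D2:**
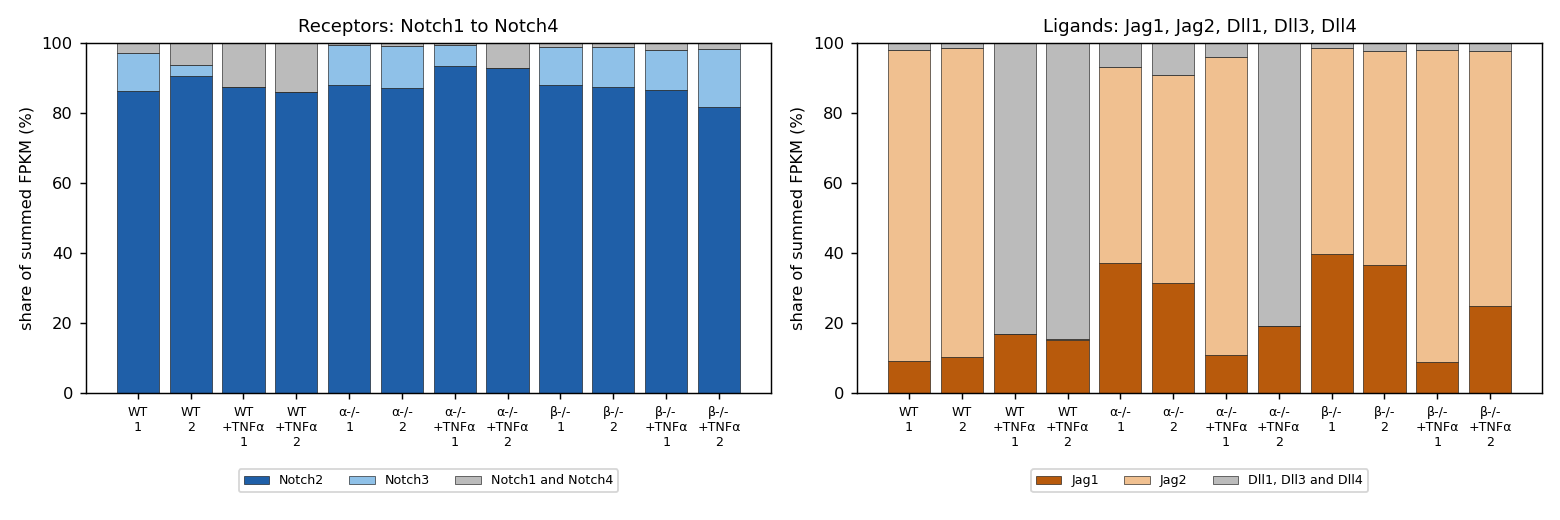
Share of each gene in the summed FPKM of the 4 Notch receptor genes (left) and of the ligand genes Jag1, Jag2, Dll1, Dll3 and Dll4 (right), 1 bar for each library in percent, with group and replicate number below. Notch2 held at least 81.6% of the receptor sum in every library, whereas in 3 libraries the Delta-like genes, not Jag2, held most of the ligand sum.

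Rbpj, the factor through which activated receptors reach DNA, is carried by 2 lines that the table does not tell apart, so reads may have been divided between them. Its higher line was at 2.77 and 1.77 in the wild-type pair without TNFα and 2.02 and 1.81 in the pair given it; for Tnfrsf1β-/- the untreated pair was at 4.74 and 4.71 and the treated pair at 2.50 and 1.78, and for the label Tnfrsf1α-/- they were at 5.066 and 5.001 (untreated) and 4.98 and 6.30 (treated). The 3 highest groups, all with a knockout label, were at 4.71 or above, and the other 6 libraries at 2.77 or below. Its lower line was between 0 and 0.99, with its highest values of 0.48 and 0.99 in the treated libraries labelled Tnfrsf1α-/-.

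Hes1, a transcriptional repressor that is the best known direct target of Notch in progenitors, was the most abundant member by mean FPKM, at 47.2. It was at 3.96 and 4.11 in the wild-type pair without TNFα and 4.87 and 4.79 in the pair given it; for Tnfrsf1β-/- the untreated pair was at 7.31 and 7.37 and the treated pair at 3.52 and 3.78, and for the label Tnfrsf1α-/- they were at 5.85 and 5.71 (untreated) and 4.20 and 3.56 (treated). In FPKM the group means ran from 11.6 in treated Tnfrsf1β-/- to 160.7 in the same genotype untreated. Untreated Tnfrsf1β-/- stood above untreated libraries labelled Tnfrsf1α-/-, and these above treated wild type, without overlap. The lowest 3 groups, untreated wild type and both treated knockouts, overlapped neighbour by neighbour.

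The Hey family, repressors that pair with Hes proteins, was nearly absent. Heyl was listed at 0 in all 12 libraries. Hey1 was listed at 0 in 9, at 0.27 in untreated wild type replicate 2, at 0.06 in untreated Tnfrsf1β-/- replicate 2 and at 1.10 in the treated replicate 2 labelled Tnfrsf1α-/-. Hes5, another target, was listed at 0 in 11 libraries and had a highest value of 0.06. A listed 0 can be a failed estimate.

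Without TNFα, 5 of the 6 tested Notch lines were higher in the libraries labelled Tnfrsf1α-/- than in wild type, and none was lower; over all lines tested 36.7% were higher and 17.0% lower. In Tnfrsf1β-/- 5 of 6 were also higher and none lower, against 36.9% and 17.5% of all lines. Both comparisons use the same 2 untreated wild-type libraries, so they are given side by side only. The lines were Hes1, Jag1, Notch2, Notch3 and Rbpj in each. Notch3 passed the filter through the untreated knockouts, with group means of 2.93 and 3.92 FPKM there and at most 0.893 in the other groups. Its calls as higher, its part in these counts and its falls with TNFα below were therefore set in part by the filter. Hes1 was 5.78 ± 0.10 against 4.04 ± 0.11 under the label Tnfrsf1α-/- (difference 1.74, SE 0.23, limma adjusted p = 6.4e-04). It was 7.34 ± 0.045 in Tnfrsf1β-/- (difference 3.30, SE 0.23, adjusted p = 2.4e-05).

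The receptor and its DNA-binding partner differed as well. Notch2 was higher by 1.81 (SE 0.33, limma adjusted p = 0.00234) under the label Tnfrsf1α-/- and by 2.27 (adjusted p = 9.0e-04) in Tnfrsf1β-/-. Rbpj was higher by 2.77 (SE 0.47, adjusted p = 0.00174) and 2.46 (adjusted p = 0.00296). Jag1 was higher by 1.40 (adjusted p = 0.00335) and 1.97 (adjusted p = 7.9e-04), and Notch3 by 1.37 (adjusted p = 0.0157) and 1.69 (adjusted p = 0.00617). Jag2 did not pass, at -0.03 (adjusted p = 1) and 0.49 (adjusted p = 0.714). The median of all lines was 0.48 and 0.47 higher in these comparisons, and that of the 6 Notch lines 1.57 and 2.12. After quantile normalization Jag1 (0.62, adjusted p = 0.0643) and Notch3 (0.72, adjusted p = 0.117) no longer passed under the label Tnfrsf1α-/-. Notch3 did not pass in either comparison with a pseudocount of 0.1 (adjusted p = 0.0839 and 0.0512) or without wild type replicate 2 (0.123 and 0.0531), nor under the label Tnfrsf1α-/- without either of its untreated libraries (0.0574 and 0.0771).

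Ranks within a library do not depend on its scale. Hes1 lay above 96.3% and 96.5% of the tested lines in untreated Tnfrsf1β-/-, above 87.3% and 86.0% in untreated libraries labelled Tnfrsf1α-/-, and above 49.7% to 69.3% in the other 8 libraries. Notch2 lay above 66.8% to 77.4% in the untreated knockouts and above 31.6% to 63.6% in the other 8. Rbpj lay above 72.2% to 77.5% in the untreated knockouts and above 73.2% and 86.2% in the treated libraries labelled Tnfrsf1α-/-, against 25.5% to 42.8% in the other 6. The ranks of the other lines set the untreated knockouts apart less or not at all. Jag1 lay above 20.1% and 17.8% in untreated libraries labelled Tnfrsf1α-/-, overlapping treated wild type (20.2% and 19.6%), and above 29.4% and 27.1% in untreated Tnfrsf1β-/-. Notch3 lay above 15.7% and 17.9% under that label, overlapping treated Tnfrsf1β-/- (12.9% and 17.5%). Jag2 ranked lower in the untreated knockouts (28.6% to 40.8%) than in untreated wild type (50.7% and 42.7%).

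**Figure D3:**
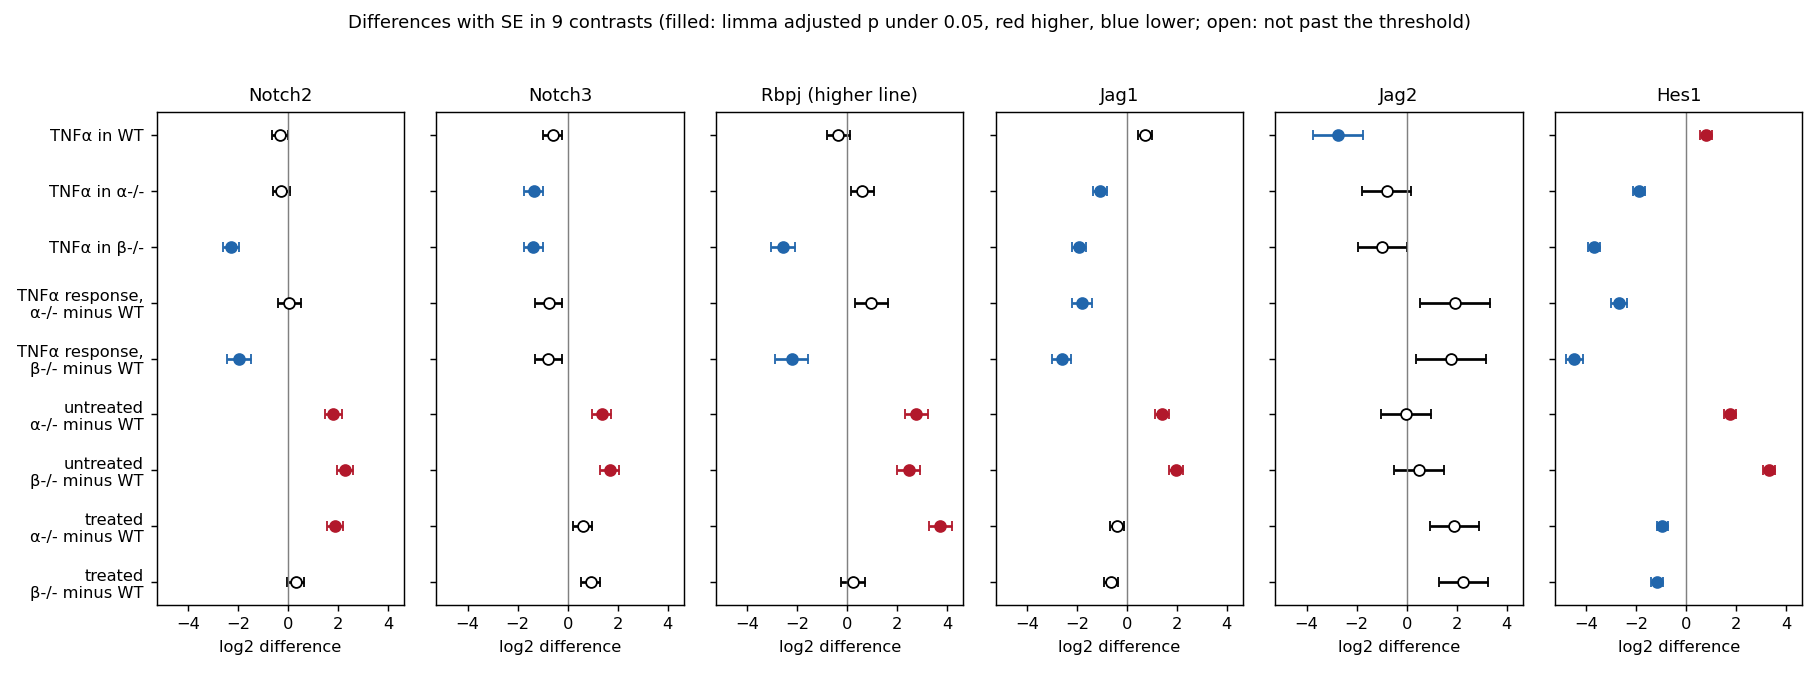
Difference of each tested Notch line in 9 contrasts on the log2(FPKM + 1) scale, with the SE of the limma fit over 12 libraries; filled points passed an adjusted p of 0.05 (red higher, blue lower) and open points did not. In both untreated knockout comparisons every line except Jag2 passed as higher. With TNFα in Tnfrsf1β-/- every line except Jag2 passed as lower, and Jag2 was lower without passing. The untreated Tnfrsf1β-/- libraries are shared by both of its comparisons.

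With TNFα in Tnfrsf1β-/- the same 5 lines fell and none rose, and over all lines 42.9% fell and 17.6% rose. The untreated Tnfrsf1β-/- libraries here are those compared with untreated wild type above. Higher values there and falls here share them and are not independent, also for the other genes below. Hes1 fell from 7.34 ± 0.045 to 3.65 ± 0.18 (difference -3.69, SE 0.23, limma adjusted p = 1.1e-05). Rbpj fell by 2.58 (SE 0.47, adjusted p = 0.00195), Notch2 by 2.29 (SE 0.33, adjusted p = 7.3e-04), Jag1 by 1.91 (SE 0.28, adjusted p = 7.4e-04) and Notch3 by 1.38 (SE 0.38, adjusted p = 0.0133). Jag2 differed by -0.97 (adjusted p = 0.429) and passed at that value when either treated library labelled Tnfrsf1α-/- was left out (adjusted p = 0.0224 and 0.0239) or both were (0.0235). The median of all lines was -0.66, and that of the 6 Notch lines -2.10. Notch3 did not pass with median-ratio scaling (-0.89, adjusted p = 0.0656), with quantile normalization (-0.44, adjusted p = 0.325), with a pseudocount of 0.1 (adjusted p = 0.149), or without any single library of this genotype (0.0532 to 0.0618). In each Tnfrsf1β-/- library total FPKM was at most 453243 untreated and at least 1076956 with TNFα; the part of this in the falls was not tested.

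In the libraries labelled Tnfrsf1α-/- 3 of the 6 lines fell with TNFα and none rose, against 7.50% lower and 9.81% higher of all lines. Here too the untreated pair is the one compared with untreated wild type, so the results are not independent. Hes1 fell from 5.78 ± 0.10 to 3.88 ± 0.45 (difference -1.90, SE 0.23, limma adjusted p = 5.7e-04), and the call was lost when the fit held these 2 groups alone (0.0988). Jag1 fell by 1.08 (adjusted p = 0.031) and Notch3 by 1.37 (adjusted p = 0.0426). Neither of these 2 calls held with a pseudocount of 0.1 (adjusted p = 0.0694 and 0.106), with no filter (0.0647 and 0.0966), or in a fit of these 2 groups alone (0.281 and 0.299). Jag1 lost its call without 7 of the 12 libraries in turn (0.0548 to 0.19) and Notch3 without 9 (0.0659 to 0.176). Without the treated replicate 2 the differences shrank to -0.69 for Jag1 and -0.77 for Notch3, and quantile normalization also ended the call of Notch3 (-1.03, adjusted p = 0.054). The treated pair differed by 3.85 in Jag2, which was at 3.85 and 0. Without the treated replicate 1 Jag2 passed as lower (-2.73, adjusted p = 4.7e-04) and Rbpj as higher (1.26, adjusted p = 0.0304), and with both libraries neither passed (-0.81, adjusted p = 0.569, and 0.61, adjusted p = 0.361). Notch2 was at 4.53 ± 0.096 and 4.27 ± 0.19 (adjusted p = 0.581). The summed FPKM of 6 mural cell markers was 1727 and 1766 in the treated pair, with Rgs5 and Kcnj8 at 0, and at most 6.42 in the untreated pair. These sums came mainly from Mcam and Abcc9, and other markers set the treated replicates apart: Cspg4 was at 0.06 and 4.74, Pdgfrb at 0.90 and 2.94, and the smooth muscle actin gene Acta2 at 8.55 and 0.26. The part of this in the values was not tested.

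In wild type 1 line rose with TNFα and 1 fell, against 31.9% higher and 15.3% lower of all lines. Hes1 rose from 4.04 ± 0.11 to 4.83 ± 0.055 (difference 0.79, SE 0.23, limma adjusted p = 0.0216), while the median of all lines moved by 0.32. Its call was lost with median-ratio scaling (0.34, adjusted p = 0.339), with quantile normalization (0.22, adjusted p = 0.463), without any single wild-type library (0.0502 to 0.0968) and without the 4 untreated knockouts (0.0844). Its rank lay above 62.7% and 68.6% of lines untreated and 69.3% and 68.9% with TNFα. Jag2 fell from 2.76 ± 0.64 to 0.02 ± 0.027 (difference -2.74, SE 0.99, adjusted p = 0.0489), a call lost without any single library except a treated one labelled Tnfrsf1α-/- (adjusted p = 0.0688 to 0.183) and with no filter on low values (0.124) or without the 4 untreated knockouts (0.108). Jag1 was at 0.72 ± 0.25 and 1.42 ± 0.14 (difference 0.71, adjusted p = 0.0644), and passed without both treated libraries labelled Tnfrsf1α-/- (0.00759). Notch3 differed by -0.60 (adjusted p = 0.223), and passed without the same 2 libraries (0.0499). Notch2 differed by -0.32 (adjusted p = 0.452), which became lower past the threshold with median-ratio scaling (-0.71, adjusted p = 0.0429), with quantile normalization (-0.75, adjusted p = 0.017) and without untreated wild type replicate 2 (-0.83, adjusted p = 0.0432). Rbpj differed by -0.35 (adjusted p = 0.56). The treated wild-type libraries are those with 4725 and 4919 FPKM of hepatocyte markers, and their mural markers summed to 267 and 327 FPKM against at most 0.97 untreated. This mural sum came almost wholly from Abcc9 and Mcam, and Pdgfrb, Rgs5 and Kcnj8 were listed at 0 in both treated libraries. The part of cell make-up in the values of the Notch lines was not tested.

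The response to TNFα itself was compared between genotypes. For the label Tnfrsf1α-/- against wild type 2 of 6 lines had a lower response and none a higher one, against 22.0% and 12.8% of all lines. The difference in response was -2.70 for Hes1 (SE 0.33, limma adjusted p = 3.4e-04) and -1.79 for Jag1 (SE 0.39, adjusted p = 0.009). Without the treated replicate 2 of that label Jag2 passed as higher (3.86, adjusted p = 4.2e-04), and without its replicate 1 Notch3 passed as lower (-1.36, adjusted p = 0.0128) and Rbpj as higher (1.62, adjusted p = 0.0311). For Tnfrsf1β-/- against wild type 4 of 6 were lower and none higher, against 47.3% and 17.3% of all lines, with a median of all lines of -1.11. Hes1 differed by -4.48 (SE 0.33, adjusted p = 7.8e-06), Jag1 by -2.61 (SE 0.39, adjusted p = 6.0e-04), Notch2 by -1.97 (SE 0.47, adjusted p = 0.00601) and Rbpj by -2.23 (SE 0.67, adjusted p = 0.0172). The calls of Notch2 and Rbpj were lost with median-ratio scaling (-0.85, adjusted p = 0.0643, and -1.19, adjusted p = 0.134). The call of Rbpj was also lost after quantile normalization (-1.27, adjusted p = 0.0702) and without untreated wild type replicate 2, treated wild type replicate 1 or treated Tnfrsf1β-/- replicate 2 (0.0615, 0.0641 and 0.0649). Jag2 had a higher response in Tnfrsf1β-/- by 1.77 that did not pass (adjusted p = 0.289), and passed when the fit held these groups alone (0.0135) or lacked either treated library labelled Tnfrsf1α-/- (0.00637 and 0.00682).

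With TNFα in all genotypes, 2 of 6 lines were higher and 1 lower under the label Tnfrsf1α-/- than in wild type, against 22.7% and 22.4% of all lines. Rbpj was higher by 3.73 (SE 0.47, limma adjusted p = 3.5e-04) and Notch2 by 1.87 (SE 0.33, adjusted p = 0.00215), while Hes1 was lower (difference -0.96, SE 0.23, adjusted p = 0.0102). That Hes1 call was lost in a fit of these 2 groups alone (0.118), without treated wild type replicate 1 (0.0556) and without the 4 untreated knockouts (0.0526). Without the treated replicate 2 of that label Jag2 and Notch3 also passed as higher (3.83, adjusted p = 6.4e-05, and 1.20, adjusted p = 0.006), and without its replicate 1 Jag1 passed as lower (-0.79, adjusted p = 0.0148). In treated Tnfrsf1β-/- 1 of 6 was lower than in treated wild type and none higher, against 36.3% and 14.7% of all lines. This was Hes1 (-1.18, SE 0.23, adjusted p = 0.00313), whose call was lost with median-ratio scaling (-0.50, adjusted p = 0.156) and with quantile normalization (-0.42, adjusted p = 0.173). Under these scalings Notch2 (0.92 and 0.86), Notch3 (1.20 and 1.37) and Jag2 (2.71 and 2.85) passed as higher instead; as fitted they differed by 0.31 (adjusted p = 0.464), 0.92 (0.0749) and 2.27 (0.0867). Jag2, Notch3 and Jag1 (-0.64) also passed without either or both treated libraries labelled Tnfrsf1α-/- (adjusted p at most 0.0111). The median of all lines was -0.41 as fitted and 0.14 and 0.12 under the 2 scalings.

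Other genes of the pathway were counted from lists by role. Without TNFα, of 7 tested nuclear co-activators 6 were higher under the label Tnfrsf1α-/- and 6 in Tnfrsf1β-/- than in wild type, and none was lower. Maml2, a Mastermind co-activator, was higher by 2.30 (limma adjusted p = 0.00105) and 2.58 (adjusted p = 6.9e-04), and the acetyltransferase gene Ep300 by 2.34 and 3.08. Of 11 nuclear co-repressors 9 and 7 were higher and none lower, with Ncor1 higher by 2.53 and 2.75. Of all lines 36.7% and 36.9% were higher in these comparisons and 17.0% and 17.5% lower. Of 8 genes of receptor cleavage 4 were higher and 2 lower under the label Tnfrsf1α-/-, and 4 higher and 1 lower in Tnfrsf1β-/-, not far from those shares. Adam17, a protease that sheds receptors, was higher by 2.05 and 1.86. Mib1, the ubiquitin ligase that activates ligands by endocytosis, was higher by 2.68 and 3.02. Of 8 inhibitors and turnover genes 3 were higher in each comparison and none lower, a share of higher lines near that of all lines, with the ubiquitin ligase gene Itch higher by 2.76 and 2.81. None of 5 tested receptor glycosylation genes passed in either comparison.

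With TNFα in Tnfrsf1β-/- 6 of 7 co-activators and 9 of 11 co-repressors fell and none rose, against 42.9% lower and 17.6% higher of all lines, with Ep300 at -2.80 (limma adjusted p = 0.0012) and Ncor1 at -2.76 (adjusted p = 4.4e-04). Of the 8 cleavage genes 4 fell and 2 rose, which is close to the shares of all lines, with Adam17 at -2.19. Of the 8 inhibitors and turnover genes 3 fell, and none of the 5 glycosylation genes passed. In the libraries labelled Tnfrsf1α-/- none of the 7 co-activators passed with TNFα and 2 of the 11 co-repressors fell. Of all lines 7.50% were lower and 9.81% higher in that comparison. In wild type 3 of 7 co-activators and 4 of 11 co-repressors rose with TNFα, near the 31.9% of all lines, and 1 co-repressor, Ctbp2, fell (-1.93), where 15.3% of all lines fell. Of the 3 Fringe enzymes, which set which ligand a Notch receptor answers to, 1 fell and 1 rose in wild type, and Rfng did not pass (0.25, adjusted p = 0.675). Lfng fell by 2.39 (adjusted p = 0.0037), and Mfng rose by 2.95 (adjusted p = 8.5e-08), being listed at 0 in the untreated pair and at 2.86 and 3.03 in the treated pair. Dll3, a Delta-like protein, rose by 2.78 (adjusted p = 1.1e-07). Mfng and Dll3 had a median near 0 over the 12 libraries and passed the filter through treated wild type, so that their rise was set in part by the filter.

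Of the other target genes, Nrarp, Sox9 and Ccnd1 differed from Hes1 in direction in at least 1 comparison, and Myc had the sign of Hes1 in those given here. Myc, a growth regulator, was higher in untreated libraries labelled Tnfrsf1α-/- (1.38, limma adjusted p = 0.038) and fell with TNFα in Tnfrsf1β-/- (-1.38, adjusted p = 0.034). It differed by 1.20 with TNFα in wild type (adjusted p = 0.0688) and by 0.58 in untreated Tnfrsf1β-/- (adjusted p = 0.343). Nrarp, a feedback inhibitor induced by Notch, was at 2.49 and 2.08 in the wild-type pair without TNFα and 0.24 and 0.15 in the pair given it; for Tnfrsf1β-/- the untreated pair was at 2.60 and 2.55 and the treated pair at 1.90 and 2.08, and for the label Tnfrsf1α-/- they were at 1.98 and 2.20 (untreated) and 1.91 and 1.46 (treated). It fell with TNFα in wild type by 2.09 (limma adjusted p = 9.5e-05), where Hes1 rose. Sox9, a transcription factor of bile duct progenitors, was at 0.02 to 0.31 in the 4 untreated knockout libraries, where Hes1 was highest, and at 5.21 to 9.67 in the other 8. It was lower in the untreated knockouts than in wild type (differences -5.23 and -5.46, adjusted p = 2.1e-06 and 1.6e-06). Ccnd1, the gene of cyclin D1, was lower there too (-4.62 and -3.97), and rose with TNFα by 2.18, 7.64 and 3.68 in wild type, the label Tnfrsf1α-/- and Tnfrsf1β-/-. Hes6, a relative of Hes1 that opposes it, rose by 2.49 in wild type (adjusted p = 3.5e-05).

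**Figure D4:**
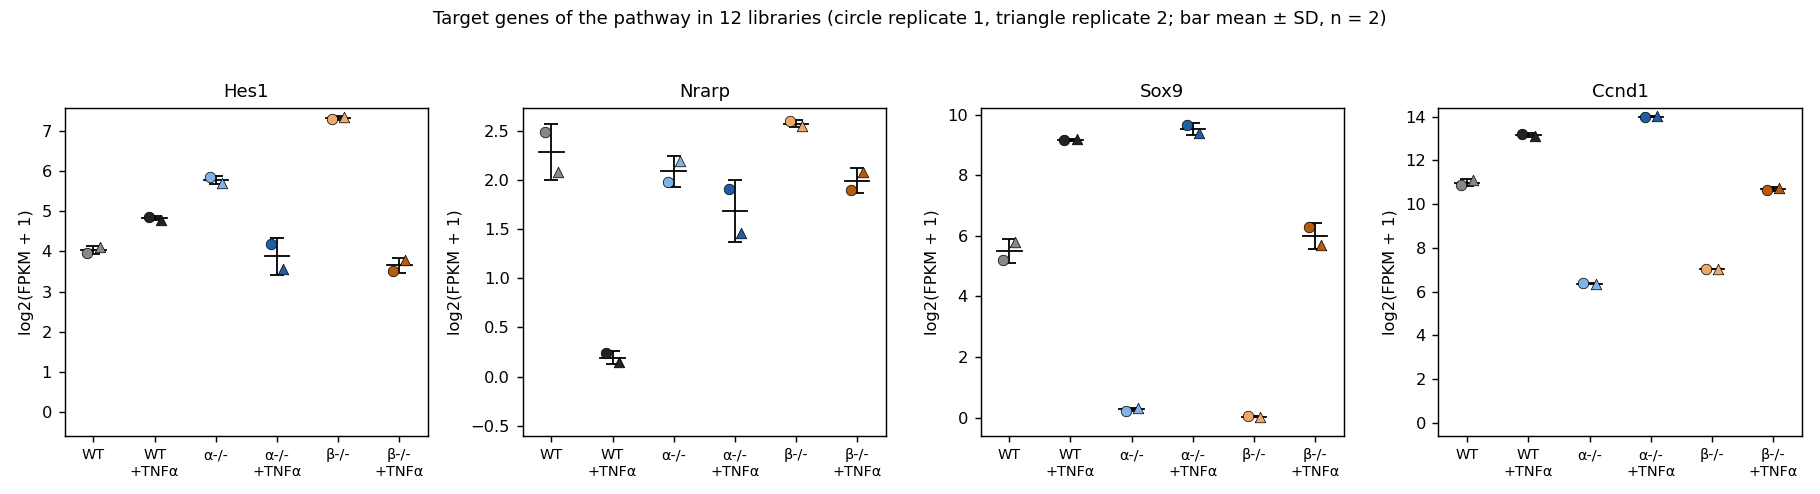
Levels of the target genes Hes1, Nrarp, Sox9 and Ccnd1 as log2(FPKM + 1), 1 point for each library (circle replicate 1, triangle replicate 2) by genotype and treatment, where α-/- and β-/- stand for Tnfrsf1α-/- and Tnfrsf1β-/-; bars are mean ± SD over n = 2. In the 4 untreated knockout libraries Hes1 was at 5.71 to 7.37 and Sox9 at 0.02 to 0.31.

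Bile duct genes, the fate that the pathway is known for, were followed from a list of 12, of which 7 lines were tested. In wild type with TNFα 5 rose and 1 fell, against 31.9% and 15.3% of all lines. The one that fell was the water channel gene Aqp1 (-5.69, limma adjusted p = 2.0e-05). Krt19, a bile duct keratin, rose by 4.81 (limma adjusted p = 2.9e-08) and the epithelial adhesion gene Epcam by 3.19; both were at or near 0 in the other 10 libraries and passed the filter through treated wild type. In the untreated knockouts 2 of 7 were lower than in wild type and none higher, where 17.0% and 17.5% of all lines were lower: Sox9, and the keratin gene Krt7 (-5.78 and -5.99). In the libraries labelled Tnfrsf1α-/- 2 rose with TNFα, Sox9 by 9.26 and Krt7 by 6.999, and Aqp1 fell (-1.96, adjusted p = 0.0274), against 9.81% and 7.50% of all lines. In Tnfrsf1β-/- 2 of 7 rose, against 17.6% of all lines, Krt7 by 6.05 and Sox9 by 5.96, in the comparison where Hes1, Jag1, Notch2, Notch3 and Rbpj fell.

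Over the 12 libraries, which are 6 pairs of replicates and share scaling, Pearson's r on log2(FPKM + 1) is given as a description. Among the tested Notch lines it was highest between Hes1 and Jag1 (0.96), then between Notch2 and Rbpj (0.90), and lowest between Jag2 and Rbpj (0.26). Over all tested lines the 2 most like Hes1 were Masp2 (0.97) and Jag1 (0.96), those most like Jag1 Masp2 (0.98) and Spata13 (0.97), and those most like Notch2 Traf3 and Smad3 (0.99 each). The lines most like Rbpj were Leprot (0.99) and Rab31 (0.98), those most like Notch3 Esyt3 and Pcdha4 (0.99 each), and those most like Jag2 Ubqln2 and Slc38a1 (0.98 each).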

How the data were processed

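Total RNA of HPCs was taken up in Trizol and made into TruSeq RNA libraries, per the labels' protocols. For aligner, counting tool and build the sources used here give nothing. A single table was deposited by the authors, of FPKM on a log2 scale for 12 libraries; that the values are log2(FPKM + 1) was inferred from their range of 0 to 16.8, and with another base every difference would change. Of 22730 lines 346 without symbol or values were left out.

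Lines with a mean of at least 1 FPKM (11860) entered a limma fit (version 3.58.1, R 4.3.3), as deposited (pseudocount 1), with 6 group means over all 12 libraries, an intensity trend and no block. P-values are two-sided, adjusted by Benjamini-Hochberg within each of 9 contrasts, with a threshold of 0.05. The fit was tested on simulated data. Alternatives were a pseudocount of 0.1, no filter, median-ratio scaling, quantile normalization, only the groups compared, a replicate block, and libraries left out.

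The members and gene lists were chosen with earlier results of these data known. Named genes are the members, in each list the up to 3 smallest p per contrast, and the 2 lines most correlated with each tested member; exceptions are stated, and some genes the rule allows are not reported here. Promoter windows are from RefSeq, GRCr8. Depth is unknown, so no counting interval is given.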

Additional observations from a re-analysis of the deposited data

Results flagged for a closer look

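The response to TNFα differed from wild type, by the limma test of the difference itself, for 6 results. Hes1 differed by -2.70 under the label Tnfrsf1α-/- (adjusted p = 3.4e-04) and by -4.48 in Tnfrsf1β-/- (adjusted p = 7.8e-06). It fell in both, and rose by 0.79 in wild type. That rise no longer passed once libraries were rescaled, at 0.34 by median ratios and 0.22 by quantiles. Jag1 differed by -1.79 (adjusted p = 0.009) and -2.61 (adjusted p = 6.0e-04). In Tnfrsf1β-/- Notch2 differed by -1.97 (adjusted p = 0.00601) and Rbpj by -2.23 (adjusted p = 0.0172). Neither of these Notch2 and Rbpj differences passed after rescaling by median ratios (-0.85 and -1.19). Rbpj did not pass after rescaling by quantiles either (-1.27). Every direction rests on the labels, and Tnfrsf1a RNA was no lower under the label Tnfrsf1α-/- than in wild type. All 6 use the same 4 wild-type libraries. Each also uses untreated knockout libraries, where Hes1, Jag1, Notch2 and Rbpj were already higher than in untreated wild type. Total FPKM was 447554 to 472935 in those knockout libraries and at least 1071530 in all others. The part of this in the differences was not tested.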

How the results depend on the processing

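No Notch line that passed in a contrast changed direction and passed there under any alternative run. The count of Notch lines called moved past 1.5 times in the following. For TNFα in wild type (2) it was 1 with no filter, 4 without both treated libraries labelled Tnfrsf1α-/-, and 0 without the 4 untreated knockout libraries, a setting added after the data were seen. For TNFα under the label Tnfrsf1α-/- (3) it was 1 with a pseudocount of 0.1, 1 with no filter and 0 with only the groups compared. It was 2 for the difference in response of Tnfrsf1β-/- (4) after median-ratio scaling, and 3 for the untreated label Tnfrsf1α-/- (5) after quantile normalization. For treated Tnfrsf1β-/- against wild type (1) it was 3 with a pseudocount of 0.1, 3 after median-ratio scaling, 3 after quantile normalization, 4 with only the groups compared and 4 without both treated libraries labelled Tnfrsf1α-/-. The cause was not tested. With 1 library left out, the lone sample of its group being assumed to vary like the others, the counts ran from 0 to 4 for TNFα in wild type, 1 to 5 under the label Tnfrsf1α-/-, 4 to 6 in Tnfrsf1β-/-, 2 to 4 and 3 to 5 for the differences in response, 4 to 5 in each untreated knockout, and 2 to 5 and 1 to 4 for the treated knockouts. Of the single differences under all alternatives 912 kept their side of the threshold, 69 lost and 45 gained a call. Replicate numbers are not said to pair libraries, and 9 of 15 group pairs had deviations correlated over 0.1 (-0.17 to 0.24); with the replicate block the counts were unchanged (5 of 6 for TNFα in Tnfrsf1β-/-) and no single call changed. Lines near 0 FPKM cannot be resolved, because depth is unknown.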
